A study of Homo sapiens with 12 samples.

Results

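A set of 96 protein-coding genes was expressed in the parental U87 line and nearly silent in its JQ1-resistant derivative when both were kept in DMSO. The members were chosen on FPKM (a level scaled for transcript length and sequencing depth). A member had at least 0.5 FPKM in both parental DMSO libraries, and its mean over both resistant DMSO libraries was more than 16-fold below the parental mean. Of 20327 protein-coding genes in the table of 57773 genes, 12080 met the first condition and 102 (0.844%) met both. IL13RA2, TIMP3, IGFBP7, UBE2K, C4orf48 and IDUA were left out by name. The 96 that remain are 0.795% of the eligible genes. The 4 DMSO libraries chose them, so DMSO levels, and ratios to DMSO, are given here as a description. Every contrast tested compares drug-treated libraries, which the rule did not use. The DMSO libraries were in the same fit, so they entered the filter on expression and the estimate of spread.

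U87 is an established human glioblastoma line. Resistant cells (U87R) and parental cells (U87P) were each exposed for 24 h to 1000 nM dBET6, to 1000 nM JQ1 or to the solvent DMSO, and each of the 6 groups held 2 polyA RNA libraries. The sources used here do not give how resistance was selected, whether the resistant line is 1 clone, or whether replicates were separate cultures. A p-value here therefore speaks only of the variation among these 12 libraries, which may be technical. In such bulk RNA, fewer cells that express a gene and less RNA per cell cannot be told apart.

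JQ1 is a small molecule that competes with acetylated histones for the bromodomains of BET proteins and so releases them from chromatin. dBET6 couples a JQ1-type ligand to a ligand of the cereblon ubiquitin ligase, which leads to degradation of BET proteins. BET proteins help RNA polymerase II into productive elongation, so both compounds alter the transcription of many genes. The members do not form a single pathway. They include adhesion molecules of neurons and glia, matrix and secreted proteins, membrane receptors and transporters, transcription factors, and cancer-testis antigens, which are germline proteins that some tumours express.

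The libraries held 24732177 to 40388589 estimated counts. In the 4 dBET6 libraries the 50 most abundant genes held 25.8% to 31% of the counts, against 12.4% to 18.5% in the JQ1 and DMSO libraries. The share of mitochondrial mRNA was 3.19% to 3.94% in dBET6 and 1.46% to 2.7% in the others. The deposited FPKM carry a scaling per library. TPM summed over transcripts was 0.435 to 0.584 of FPKM in the dBET6 libraries and 1.23 to 1.54 of it in the others, so a ratio of dBET6 to DMSO in FPKM would be lower in TPM by that factor. The 6 mesenchymal and glioma markers checked, among them VIM and CD44, were present in both lines. CDKN2A, CDKN2B and MTAP, which U87 is known to lack, summed to at most 0.107 FPKM in resistant libraries and 0.144 FPKM in parental libraries.

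The loss held under both compounds. The median member stood at 2.41% of the parental level in JQ1 and at 6.85% in dBET6, and at 2.32% in DMSO, where the rule fixed it. Over all eligible genes the same medians were 96.9%, 97.4% and 94.2%. In JQ1, 73 of the 96 were still more than 16-fold lower in resistant cells, as were 0.902% of eligible genes. In dBET6 the number was 46 of 96, against 0.654% of eligible genes. Both resistant libraries lay below both parental libraries for 94 members in JQ1 (39.0% of eligible genes) and for 84 in dBET6 (37.4%). Across all 12 libraries the highest resistant value lay below the lowest parental value for 82 of the 96 (3.92% of eligible genes).

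**Figure D1:**
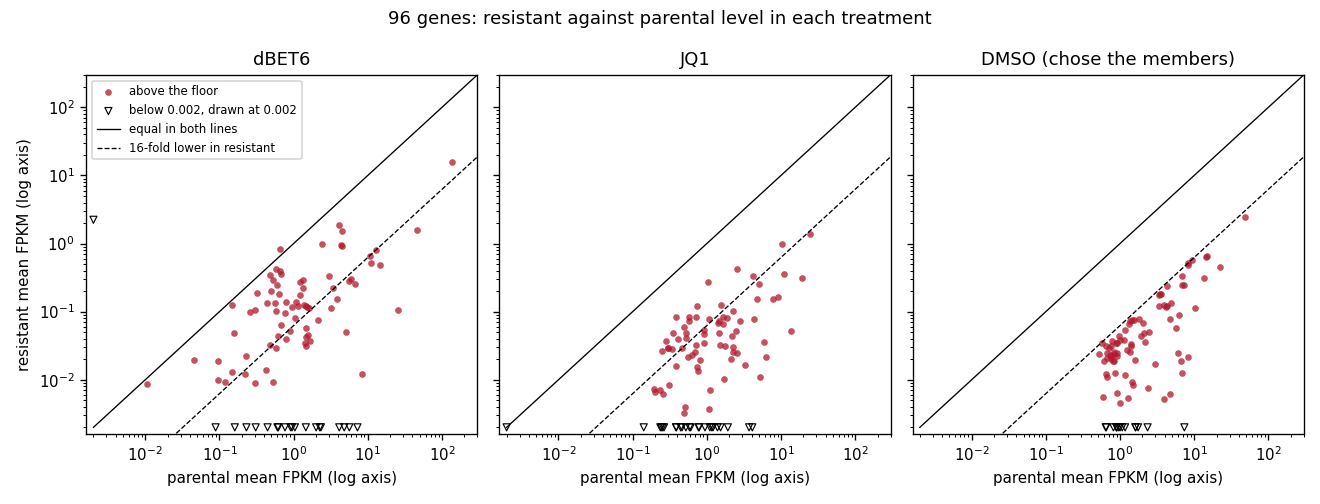
Mean FPKM of each of the 96 genes in resistant cells (vertical, log axis) against parental cells (horizontal, log axis) in dBET6, JQ1 and DMSO. The solid line marks equal levels and the dashed line a level 16-fold lower in resistant cells. Triangles mark genes with a mean under 0.002 in either line, drawn at that value. In JQ1, 73 genes lie more than 16-fold below equality, and in dBET6 46 do.

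The count test covered 88 members. In JQ1, 85 of these 88 were lower in resistant cells and 0 were higher with edgeR's quasi-likelihood test, where 19.0% of all 19093 genes tested were lower and 16.8% higher. At an unadjusted p under 0.05, 4047 of all genes were higher in resistant JQ1 and 4308 in resistant dBET6. The members' median log2 fold change was -5.02, or -4.51 with the 18 members at 0 counts in resistant JQ1 set at their bound, against 0.01 over all genes. In dBET6, 77 of 88 were lower and 0 higher, where 24.3% of all genes were lower and 19.7% higher. The median there was -4.06, or -3.17 with the 16 members at 0 counts at their bound, against -0.07 over all genes. A bound sets a group at 0 counts to 3 counts per library. The members that did not pass in JQ1 were TRPC4, MTMR1 and CSF2. Those that did not pass in dBET6 included MPPED2, TRAM1L1, TLR4, PAK3, CSF2, ZNF287, PBX4, LANCL3, BRINP1 and ADRA1B.

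Another 7 members had no transcript that could be paired with them and 1 had too few counts, so these 8 were described and tested on FPKM alone. With limma on log2(FPKM + 1), which covers all 96, 75 were lower and 0 higher in JQ1, where 7.85% and 5.61% of 27358 genes were, and 67 were lower in dBET6 (14.8%). A single member, AL645608.1, was higher in dBET6 (15.1% of genes were). This unnamed gene had 1.55 and 2.91 FPKM in resistant dBET6, 0.675 and 0 in resistant JQ1 and 0 in both resistant DMSO libraries, against 0 in both parental dBET6, 4.21 and 4.04 in parental JQ1 and 0.957 and 2.28 in parental DMSO. Its order of the lines in dBET6 is thus the opposite of that in JQ1.

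There were 8 members listed at 0 in all 6 resistant libraries: the cancer-testis antigens CT45A1, CT45A5, CT45A6, MAGEC1 and SAGE1, together with SERP2, XKR3 and AC012414.1. Of all eligible genes 0.0662% were so listed. CT45A5 had 4.41 and 5.20 FPKM in parental dBET6, 3.96 and 4.24 in parental JQ1 and 8.03 and 6.70 in parental DMSO. CT45A6 had 0.921 and 0.901 FPKM, 1.27 and 1.80 FPKM, and 1.21 and 1.14 FPKM in those same parental groups. The CT45A genes are near-identical copies between which reads are divided, so the level of each one is uncertain. MAGEC1 had 0 counts in resistant cells against 106 in parental dBET6 and 207 in parental JQ1, which puts it at least 13.4-fold lower in dBET6 and at least 35.1-fold lower in JQ1. Among its neighbours on the X chromosome, MAGEC2 had a mean of 0.386 FPKM in resistant dBET6 and 0.243 in resistant JQ1, against 0.468 in parental dBET6 and 0.203 in parental JQ1, and its log2 difference between the lines did not pass in either compound (adjusted p = 0.656 in dBET6 and 0.615 in JQ1). SAGE1 was at 0 counts in resistant cells too, but its paired transcripts gave only 0.128 of its deposited FPKM. In parental cells SAGE1 was higher in dBET6 than in JQ1 by counts (1.83, adjusted p = 0.00254) and lower by FPKM with limma (-0.44, adjusted p = 0.0104).

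Among cell adhesion and synapse genes, all 11 members tested were lower in resistant cells under both compounds. The roles used to group the members were assigned after their values were known, so these counts describe and do not test. PCDH7, a protocadherin, had 0.0482 and 0.0416 FPKM in resistant dBET6, 0.0128 and 0.00882 in resistant JQ1 and 0.0206 and 0.0287 in resistant DMSO, against 2.19 and 0.982 in parental dBET6, 5.02 and 5.43 in parental JQ1 and 6.03 and 6.08 in parental DMSO. Every resistant library lay more than 16-fold below every parental one. The log2 fold change was -4.76 ± 0.30 in dBET6 (adjusted p = 5.06e-13) and -8.68 ± 0.23 in JQ1 (adjusted p = 1.16e-20), with edgeR as for all such values below, given ± SE with n = 2 libraries per group. SLITRK5, a transmembrane protein that shapes synapses, had 0 FPKM in both resistant dBET6 libraries and 0.0233 and 0.0423 in resistant JQ1, against 0.362 and 0.255 in parental dBET6 and 1.55 and 1.48 in parental JQ1. FAT4, an atypical cadherin, was likewise at 0 in both resistant dBET6 libraries and at 0.0257 and 0.0136 FPKM in resistant JQ1, against 0.247 and 0.215 in parental dBET6 and 0.748 and 0.884 in parental JQ1. In dBET6 FAT4 was at least 17.6-fold lower and SLITRK5 at least 5.92-fold lower. PTPRD, a receptor phosphatase, had 0 counts in resistant dBET6 against 180 in parental dBET6, and NLGN1, a postsynaptic neuroligin, had 0 against 56. NCAM2, a neural adhesion molecule, had 1 count in resistant dBET6 against 92 in parental dBET6. PTPRD, NLGN1 and NCAM2 were named after their values were seen. The 6 neuron markers summed to 14.1 to 22.8 FPKM in resistant libraries and 12.1 to 21.6 FPKM in parental libraries.

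Of 13 secreted and matrix members, 12 were lower in resistant JQ1 and 11 in resistant dBET6. HAS1, which makes the matrix polysaccharide hyaluronan, had 1.65 and 1.40 FPKM in resistant dBET6, 0.246 and 0.294 in resistant JQ1 and 0.332 and 0.696 in resistant DMSO, against 4.23 and 4.6 in parental dBET6, 1.10 and 0.996 in parental JQ1 and 8.21 and 8.50 in parental DMSO. Both lines had more of it in dBET6 than in JQ1, with a log2 difference between the lines of -1.85 ± 0.20 in dBET6 (adjusted p = 1.55e-08) and -2.19 ± 0.26 in JQ1 (adjusted p = 1.06e-07). HAS1 lies close to the rule's limit, at 6.15% of the parental level in DMSO. NBL1, a secreted antagonist of bone morphogenetic proteins, had 0.218 and 0.750 FPKM in resistant dBET6 and 0.0835 and 0.0711 in resistant JQ1, against 15.6 and 13.4 in parental dBET6 and 4.53 and 4.01 in parental JQ1. Its log2 fold change was -4.94 ± 0.22 in dBET6 (adjusted p = 1.01e-15) and -5.19 ± 0.24 in JQ1 (adjusted p = 3.11e-15). PNLIPRP3, a lipase-related protein, had 0.351 and 0.245 FPKM in resistant dBET6 and 0.238 and 0.268 in resistant JQ1, against 5.82 and 6.12 in parental dBET6 and 5.16 and 4.82 in parental JQ1. LUM, a matrix proteoglycan that was also listed here as a fibroblast marker, had 0 FPKM in all 4 drug-treated resistant libraries, against 1.00 and 1.92 in parental dBET6 and 0.219 and 0.0641 in parental JQ1. The 6 fibroblast markers summed to 13.4 to 77.3 FPKM in resistant libraries and 53.4 to 109 FPKM in parental libraries, mostly from COL1A1 and COL1A2, and their part in the result was not tested. FDCSP, at the limit of the rule with 6.05% of the parental level in DMSO, had 0 FPKM in the 4 drug-treated resistant libraries, against 2.25 and 2.25 in parental dBET6 and 0.243 and 0.644 in parental JQ1. Its JQ1 value rested on 9 parental counts, and its call there ended when either resistant JQ1 library or parental JQ1 replicate 2 was left out (adjusted p = 0.0912, 0.0862 and 0.107).

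Among 16 receptors, channels and transporters, 15 were lower in resistant JQ1 and 14 in resistant dBET6. GABRA3, a subunit of the GABA-A receptor, had 0.0820 and 0.0185 FPKM in resistant dBET6, 0.0369 and 0.0227 in resistant JQ1 and 0.0349 and 0.330 in resistant DMSO, against 5.42 and 4.71 in parental dBET6, 2.42 and 2.05 in parental JQ1 and 3.70 and 3.49 in parental DMSO. The groups stood far apart in each treatment, with a log2 fold change of -6.62 ± 0.29 in dBET6 (adjusted p = 5.05e-16) and -6.20 ± 0.28 in JQ1 (adjusted p = 6.40e-16). SLC26A1, a sulfate transporter, had 0.215 and 0 FPKM in resistant dBET6 and 0 and 0.104 in resistant JQ1, against 26.7 and 25.1 in parental dBET6 and 12.8 and 14.1 in parental JQ1. This gene overlaps IDUA, one of the genes left out, and reads of the pair may not be told apart without strand. SLC16A7, a monocarboxylate transporter, had 0.209 and 0.243 FPKM in resistant dBET6 and 0.264 and 0.592 in resistant JQ1, against 3.75 and 2.98 in parental dBET6 and 1.84 and 3.31 in parental JQ1, and was 1 of the 5 members with the highest level left in resistant JQ1. FIBCD1, a membrane receptor for acetylated sugars, had 0.367 and 0.685 FPKM in resistant dBET6 and 0.0518 and 0 in resistant JQ1, against 9.83 and 12.2 in parental dBET6 and 2.73 and 1.80 in parental JQ1. MRGPRF, an orphan G protein-coupled receptor, was low in dBET6 in both lines, with 0 and 0.0247 FPKM in resistant cells against 0.223 and 0.224 in parental cells, while in JQ1 it had 0.0315 and 0.0312 against 1.81 and 1.69.

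TLR4, the receptor for bacterial lipopolysaccharide, had 0.0172 and 0 FPKM in resistant dBET6, 0.00618 and 0.00619 in resistant JQ1 and 0.0529 and 0.0352 in resistant DMSO, against 0.0212 and 0 in parental dBET6, 0.274 and 0.240 in parental JQ1 and 1.05 and 0.891 in parental DMSO. The parental cells thus had almost none of it in dBET6, where each line held 1 count in all, and the lines could not be told apart at this depth (adjusted p = 0.898). In JQ1 the parental level was 33 times the resistant one (counting interval 8.78 to 279). TRPC4, a cation channel, is a member whose counts and FPKM disagree. Its counts were 4 in resistant JQ1, all in replicate 1, against 0 in parental JQ1, while its deposited FPKM were 0.0275 and 0.0249 in resistant JQ1 against 0.244 and 0.254 in parental JQ1. Only 0.529 of its FPKM was rebuilt from paired transcripts, so its fold changes are uncertain.

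All 13 transcription factor and chromatin members were lower in resistant JQ1, and 11 in resistant dBET6. HMGN3, which binds nucleosomes, had 0.258 and 0.249 FPKM in resistant dBET6 and 0.187 and 0.144 in resistant JQ1, against 6.43 and 7.20 in parental dBET6 and 9.22 and 9.07 in parental JQ1. NFATC4, a calcium-regulated factor, had 0.370 and 0.0675 FPKM in resistant dBET6 and 0.0818 and 0.0164 in resistant JQ1, against 1.72 and 0.918 in parental dBET6 and 1.55 and 1.40 in parental JQ1, with DMSO means of 0.485 FPKM in resistant and 8.24 FPKM in parental cells. RORB, a retinoid-related orphan nuclear receptor, had 0.0923 and 0.105 FPKM in resistant dBET6, 0.0692 and 0.0393 in resistant JQ1 and 0.0278 and 0.0192 in resistant DMSO, against 0.236 and 0.282 in parental dBET6, 0.733 and 1.11 in parental JQ1 and 0.514 and 0.522 in parental DMSO. Every resistant library lay below every parental library, but in dBET6 the call of the lower level (log2 fold change -1.40 ± 0.32, adjusted p = 7.84e-04) ended with limma on log2(FPKM + 1), where the adjusted p was 0.224.

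HOXD11 and HOXD10 are next to each other in the HOXD cluster, whose genes are known to be expressed along the body axis in the order of their positions. HOXD11 had 0.160 and 0.117 FPKM in resistant dBET6, 0.0938 and 0.148 in resistant JQ1 and 0.0937 and 0.151 in resistant DMSO, against 0.878 and 0.684 in parental dBET6, 0.814 and 0.667 in parental JQ1 and 3.27 and 3.42 in parental DMSO. HOXD10 had 0 and 0.161 FPKM in resistant dBET6, 0 and 0.0311 in resistant JQ1 and 0.0340 and 0 in resistant DMSO, against 1.23 and 0.842 in parental dBET6, 0.712 and 0.771 in parental JQ1 and 2.90 and 3.08 in parental DMSO. In both genes every resistant library lay below every parental library. The log2 fold change of HOXD11 was -1.94 ± 0.46 in dBET6 (adjusted p = 0.00102) and -2.29 ± 0.36 in JQ1 (adjusted p = 9.30e-06). For HOXD10 the parental level was 19.7 times the resistant one in dBET6 (counting interval 5.19 to 167) and 70.1 times in JQ1 (12.2 to 2809.6), on 2 and 1 resistant counts.

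Other genes of the cluster were closer between the lines. HOXD9, next to HOXD10, had 0.723 and 0.839 FPKM in resistant JQ1 and 1.24 and 1.26 in resistant DMSO, against 1.19 and 0.993 in parental JQ1 and 1.59 and 1.59 in parental DMSO. Its log2 difference between the lines was -0.48 ± 0.21 in JQ1 (adjusted p = 0.0716) and -1.32 ± 0.57 in dBET6 (adjusted p = 0.0693). HOXD13, on the far side of HOXD12, had 0.623 and 0.786 FPKM in resistant JQ1 against 0.761 and 0.776 in parental JQ1 (log2 difference -0.10 ± 0.22, adjusted p = 0.778). HOXD8 was lower in resistant JQ1 by less, at -0.79 ± 0.15 (adjusted p = 9.30e-05). HOXD4 was higher in resistant JQ1, at 0.86 ± 0.30 (adjusted p = 0.0268). These genes were looked up after the pair was seen. Over the list of 34 HOX genes, 24 were tested, the members HOXD10 and HOXD11 among them. In JQ1 11 were lower and 4 higher, where 19.0% and 16.8% of all genes were. The median log2 difference was -0.49 against 0.01 over all genes. In dBET6 4 were lower and 3 higher, where 24.3% and 19.7% of all genes were, with a median of -0.36 against -0.07. HOXB2 was higher in JQ1 (0.70 ± 0.13, adjusted p = 7.45e-05).

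**Figure D2:**
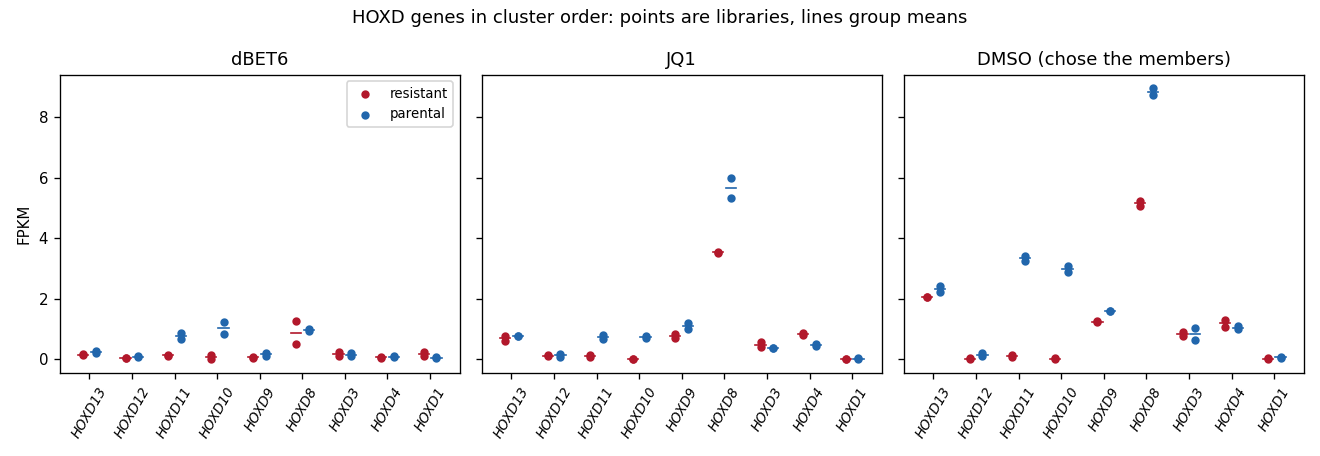
FPKM of 9 HOXD genes, drawn from HOXD13 to HOXD1 with HOXD3 before HOXD4, for resistant (red, left of each pair) and parental cells (blue) in dBET6, JQ1 and DMSO. Points are libraries and short lines are group means of 2. HOXD11 and HOXD10 are near 0 in resistant cells in all 3 treatments, while HOXD13, HOXD9 and HOXD8 are present in both lines in DMSO.

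The promoter windows of this adjacent pair are printed since both genes were lost together, and that of ZNF287 since it came back in dBET6. RefSeq sequence on GRCh38.p14 runs from 250 bases before to 50 bases after each gene's start, 5′ to 3′ on the gene's strand, with every CpG dinucleotide in capitals. HOXD11 is at chr2:176107030-176107329, HOXD10 at chr2:176116528-176116827, both on the plus strand, and ZNF287 at chr17:16569155-16569454 on the minus strand.
HOXD11: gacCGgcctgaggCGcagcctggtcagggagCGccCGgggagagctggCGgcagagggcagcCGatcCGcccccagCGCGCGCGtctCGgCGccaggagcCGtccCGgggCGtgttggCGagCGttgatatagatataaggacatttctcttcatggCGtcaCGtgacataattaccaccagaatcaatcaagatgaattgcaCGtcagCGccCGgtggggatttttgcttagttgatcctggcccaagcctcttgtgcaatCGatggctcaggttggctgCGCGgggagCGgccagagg
HOXD10: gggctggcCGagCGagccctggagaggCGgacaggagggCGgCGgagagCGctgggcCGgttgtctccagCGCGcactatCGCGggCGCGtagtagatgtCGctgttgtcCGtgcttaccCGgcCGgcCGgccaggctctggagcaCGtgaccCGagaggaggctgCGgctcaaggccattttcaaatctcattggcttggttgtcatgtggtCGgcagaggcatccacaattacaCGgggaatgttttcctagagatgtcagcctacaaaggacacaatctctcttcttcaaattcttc
ZNF287: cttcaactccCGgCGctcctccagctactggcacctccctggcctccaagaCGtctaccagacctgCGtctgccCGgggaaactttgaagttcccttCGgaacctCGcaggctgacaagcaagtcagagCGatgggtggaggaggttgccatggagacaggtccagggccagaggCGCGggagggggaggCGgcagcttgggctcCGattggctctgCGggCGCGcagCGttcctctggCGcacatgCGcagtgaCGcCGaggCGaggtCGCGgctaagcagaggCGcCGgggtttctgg

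The CpG dinucleotide, the site of cytosine methylation, reads CG on either strand. The windows held 27 CpG for HOXD11, 23 for HOXD10 and 25 for ZNF287, and those of PCDH7 and TLR4, not printed, held 16 and 8. Over the 35116 promoters of the table the median was 14.0 and the quartiles 4.0 and 28, and 96% held at least 1. Only 72 of the 96 members (75%) had a promoter there, so no comparison of promoter composition was made over the set. DNA methylation was not analysed here. Of the 24 DNA methylation and Polycomb genes tested, 1 was lower and 7 were higher in resistant JQ1, and 4 were lower and 6 higher in resistant dBET6. Over all genes 19.0% were lower and 16.8% higher in JQ1, and 24.3% were lower and 19.7% higher in dBET6. DNMT1, the maintenance methyltransferase, was 0.62 ± 0.09 higher on the log2 scale in JQ1 (adjusted p = 2.77e-06) and 0.42 ± 0.09 higher in dBET6 (adjusted p = 3.89e-04).

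ZNF287, a zinc finger protein, had the highest resistant level relative to parental cells in dBET6 among members above 0 in parental dBET6, at 126%. It had 0.598 and 1.07 FPKM in resistant dBET6 and 0 in both libraries of resistant JQ1 and of resistant DMSO, against 0.862 and 0.464 in parental dBET6, 1.03 and 0.859 in parental JQ1 and 0.570 and 1.06 in parental DMSO. The lines therefore overlapped in dBET6 and were apart in JQ1 and DMSO. Its counts were 7 and 8 in resistant dBET6 and 0 and 0 in resistant JQ1, against 11 and 9 in parental dBET6 and 36 and 25 in parental JQ1. Resistant JQ1 was at least 10.2-fold below parental JQ1 and resistant dBET6 at least 6.14-fold above resistant JQ1 (adjusted p = 3.77e-06). In dBET6 the log2 difference between the lines was -0.02 ± 0.52 (adjusted p = 0.987), with an error too wide to tell the lines apart or to show that they are alike.

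Among 10 signalling, cytoskeleton and vesicle members, 10 were lower in resistant JQ1 and 9 in resistant dBET6. CHN2, a GTPase-activating protein of Rac, had 2.15 and 1.62 FPKM in resistant dBET6 and 0.331 and 0.387 in resistant JQ1, against 4.83 and 3.26 in parental dBET6 and 11.8 and 10.5 in parental JQ1. By FPKM it was thus among the members with most left in resistant dBET6, but the paired transcripts gave only 0.101 there in place of 1.88, and 3 counts against 59. Between dBET6 and JQ1 in resistant cells its log2 difference was -0.68 by counts (adjusted p = 0.489) and 1.08 by FPKM with limma (adjusted p = 0.00104). ARAP2, a GTPase-activating protein of Arf, had 0.0453 and 0 FPKM in resistant dBET6 and 0.0329 and 0.0181 in resistant JQ1, against 0.348 and 0.105 in parental dBET6 and 0.662 and 0.732 in parental JQ1. Its lower level in dBET6, on 1 count against 25, passed with edgeR (adjusted p = 3.44e-04) but not with limma on log2(FPKM + 1), where the adjusted p was 0.137.

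Of the 9 enzymes and lipid carriers, 8 were lower in resistant JQ1 and 9 in resistant dBET6. DNPH1, which hydrolyses deoxynucleoside monophosphates, was the most highly expressed member. It had 14.5 and 17.3 FPKM in resistant dBET6, 1.41 and 1.35 in resistant JQ1 and 2.32 and 2.60 in resistant DMSO, against 149 and 122 in parental dBET6, 23.4 and 25.8 in parental JQ1 and 50.2 and 47.3 in parental DMSO. Both lines had more of it in dBET6 than in JQ1, and the lines were apart in each. The log2 fold change between them was -3.11 ± 0.12 in dBET6 (adjusted p = 5.86e-17) and -4.20 ± 0.17 in JQ1 (adjusted p = 6.56e-17). OSBPL5, a lipid transfer protein, had 0 FPKM in both resistant dBET6 libraries and 0.0280 and 0.0219 in resistant JQ1, against 4.64 and 3.6 in parental dBET6 and 2.35 and 2.70 in parental JQ1. At 0 counts against 374 it was at least 47.1-fold lower in dBET6. HDHD1, a phosphatase now named PUDP, had 0.999 and 1.00 FPKM in resistant dBET6, 1.37 and 0.579 in resistant JQ1 and 0.788 and 0.372 in resistant DMSO, against 2.0 and 2.80 in parental dBET6, 10.8 and 9.82 in parental JQ1 and 8.27 and 10.6 in parental DMSO. The lines were apart in each treatment and closest in dBET6. With edgeR its level in dBET6 was lower than in JQ1 in parental cells and higher than in JQ1 in resistant cells (0.94 ± 0.34, adjusted p = 0.0152). That higher call came from 29 counts in dBET6 against 37 in JQ1 before scaling, and its resistant FPKM overlapped between the compounds. It ended with limma on log2(FPKM + 1), where the adjusted p was 0.893. Total-count scaling shifted the median of all genes in that comparison by -0.88.

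Among members of other function, LDOC1 (derived from a retrotransposon gag gene) and BEX1 (brain-expressed, X-linked) were the highest. LDOC1 had 1.68 and 1.49 FPKM in resistant dBET6, 0.408 and 0.223 in resistant JQ1 and 0.437 and 0.461 in resistant DMSO, against 52.7 and 39.6 in parental dBET6, 19.4 and 18.6 in parental JQ1 and 22.7 and 21.7 in parental DMSO. BEX1 had 0.792 and 0.827 FPKM in resistant dBET6, 0.0427 and 0 in resistant JQ1 and 0.264 and 0.235 in resistant DMSO, against 13.1 and 13 in parental dBET6, 5.89 and 6.73 in parental JQ1 and 7.09 and 7.35 in parental DMSO. The resistant libraries of both genes stayed far below the parental ones in all 3 treatments. BEX1 had 15 counts in resistant dBET6 and 1 in resistant JQ1, which is 36.9 times as much after scaling (counting interval 5.67 to 1552) (adjusted p = 2.39e-06).

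**Figure D3:**
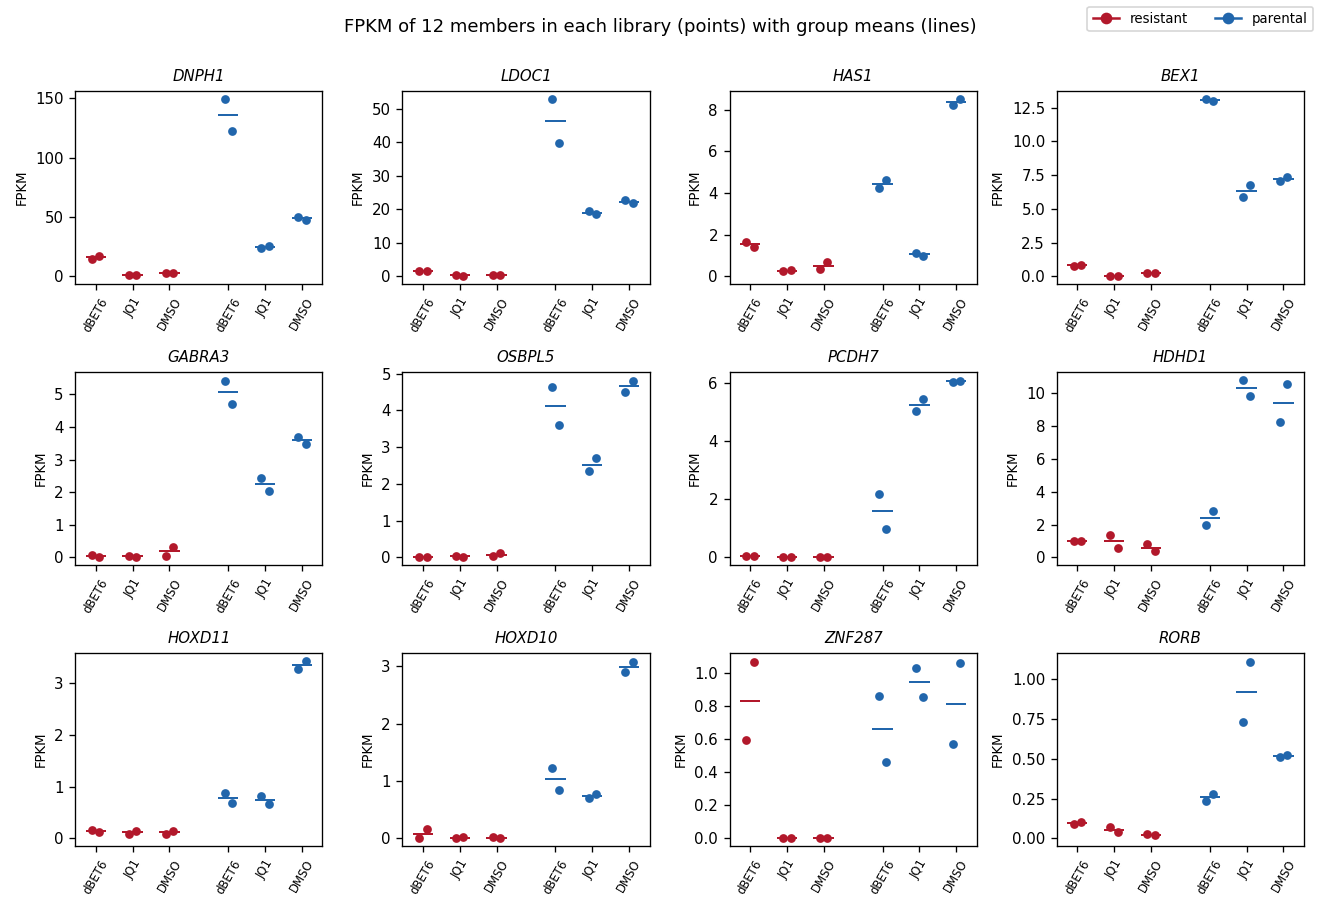
FPKM of 12 members in each library, for resistant (red, left) and parental cells (blue, right) in dBET6, JQ1 and DMSO. Points are the 2 libraries of a group and lines their mean, and each panel has its own scale. ZNF287 is the panel in which the resistant dBET6 libraries (0.598 and 1.07) reach the parental ones.

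Ratios to DMSO are given as a description in the deposited FPKM. In resistant dBET6, 48 of 96 had more than 2 times their DMSO mean, against 18.5% of eligible genes, and 20 had less than 0.5 of it, against 35.1%. The median ratio was 2.22 over the 81 members not at 0 in resistant DMSO, against 0.750 over eligible genes. In resistant JQ1, 16 were above 2 times DMSO (3.68% of eligible genes) and 30 under 0.5 of it (9.43%), with a median ratio of 0.681 against 0.968. In parental dBET6, 8 were above 2 times DMSO (12.5%) and 39 under 0.5 of it (34.3%), with a median of 0.628 against 0.741. In parental JQ1, 2 were above 2 times DMSO (4.82%) and 42 under 0.5 of it (11%), with a median of 0.551 against 0.933. Members were chosen as low in resistant DMSO and high in parental DMSO, so ratios to those same libraries lean upward in resistant cells and downward in parental cells, and nothing is read from them.

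**Figure D4:**
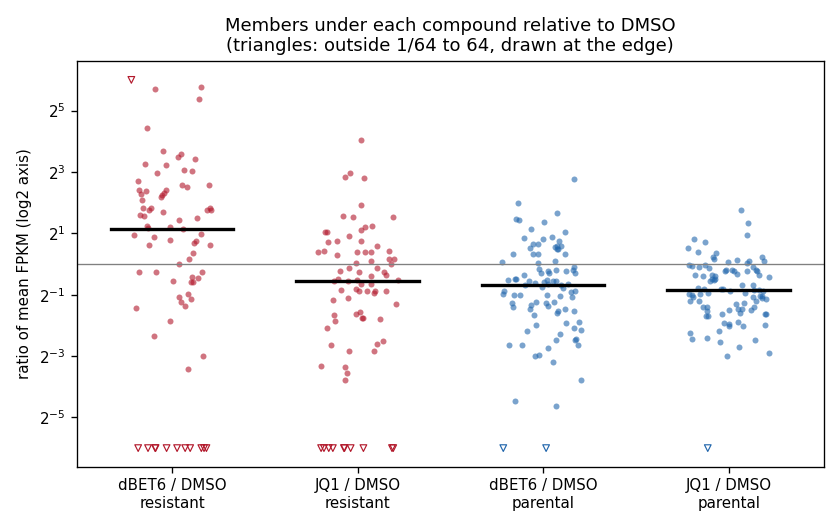
Ratio of mean FPKM under each compound to DMSO (log2 axis) for each member, in resistant cells (red) and parental cells (blue). Black bars are medians, 2.22 and 0.681 in resistant and 0.628 and 0.551 in parental cells. The 15 members at 0 in resistant DMSO have no ratio there and are not drawn, and triangles lie beyond the axis.

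In contrasts that held no DMSO library, dBET6 was compared with JQ1 in each line. In resistant cells 32 of 88 members were higher in dBET6 and 1 was lower, where 35.4% of all genes were higher and 38.8% lower. The members' share of higher calls was thus near the background. Nothing is read from their share of lower calls, since members were chosen as nearly silent in resistant cells, and only 17 of the 88 could be tested when the fit held no other libraries than these 4. Their median log2 difference was 1.18, or 1.27 over 64 members with zeros at their bound, against -0.03 over all genes. Nothing is read from this median either, since most members passed the filter only with other libraries in the fit. DNPH1 (3.54 ± 0.19, adjusted p = 1.59e-15), HAS1 (2.51 ± 0.28, adjusted p = 7.24e-09), LDOC1 (2.31 ± 0.31, adjusted p = 2.35e-07), BEX1 and ZNF287 led the higher calls. FAT4 was the lower one, at 0 counts in dBET6 against 23 in JQ1, at least 1.56-fold lower, and its call ended with limma on log2(FPKM + 1), where the adjusted p was 0.834. With total counts in place of TMM, 20 members were higher and 9 lower, and with mitochondrial scaling 11 were higher and 14 lower, so the direction of the set in this comparison depends on the scaling. With limma on log2(FPKM + 1), 10 of 96 were higher (28.4% of genes) and 0 lower (25.1%).

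In parental cells 30 of 88 were higher in dBET6 than in JQ1 and 22 were lower, where 36.2% of all genes were higher and 38.4% lower. The median log2 difference was 0.21, against 0.00 over all genes. With total counts in place of TMM 18 members were higher and 36 lower, and with mitochondrial scaling 5 were higher and 57 lower. DNPH1 (2.45 ± 0.11, adjusted p = 4.79e-17), HAS1 (2.17 ± 0.18, adjusted p = 1.89e-11), NBL1 (1.69 ± 0.14, adjusted p = 5.43e-11), LDOC1 (1.32 ± 0.12, adjusted p = 1.20e-10) and FIBCD1 (2.12 ± 0.22, adjusted p = 2.38e-09) led the higher calls. LDOC1 turned to -0.16 (adjusted p = 0.499) and NBL1 lost its call (adjusted p = 0.376) with mitochondrial scaling. PCDH7 (-2.20 ± 0.13, adjusted p = 1.27e-14), HDHD1 (-2.39 ± 0.17, adjusted p = 7.40e-13), MRGPRF (-2.92 ± 0.26, adjusted p = 5.68e-11), SLITRK5 (-2.26 ± 0.21, adjusted p = 2.75e-10) and FAT4 (-1.81 ± 0.18, adjusted p = 1.57e-09) led the lower calls.

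By edgeR the line difference changed upward for 18 of 88 members and downward for 2. Over all genes, 14.6% changed upward and 15.5% downward. Nothing is read from the balance of the members' directions. They were chosen as nearly silent in resistant cells, where few counts leave little room for a lower level. Upward was a narrower gap in dBET6 than in JQ1 for all but MPPED2. By counts its resistant line lay above the parental one in dBET6, which did not pass (1.12 ± 0.50, adjusted p = 0.0684). In JQ1 it lay below (-2.31 ± 0.41, adjusted p = 5.97e-05). The 18 were ZNF287, PBX4, MSC, PCDH7, CDKL2, BEX1, MPPED2, HDHD1, LANCL3, PAK3, LMO2, THRB, GALNT9, RORB, FOXRED2, FEZ1, DNPH1 and LDOC1. By role they were 6 of 13 transcription factor and chromatin members tested, 4 of 9 enzymes and lipid carriers and 4 of 14 members of other function. Signalling, cytoskeleton and vesicle members gave 3 of 10, and adhesion and synapse members 1 of 11. The roles were assigned after the values were known, so these counts only describe. HDHD1 changed by 3.33 ± 0.40 (adjusted p = 4.86e-07), PCDH7 by 3.92 ± 0.75 (adjusted p = 2.16e-04) and RORB by 2.43 ± 0.45 (adjusted p = 1.45e-04), and all 3 were lower in parental dBET6 than in parental JQ1, RORB by -1.66 ± 0.22 (adjusted p = 1.51e-07). In resistant cells HDHD1 was higher in dBET6 than in JQ1 with edgeR, as given above. So was PCDH7 (1.73 ± 0.69, adjusted p = 0.0465), on 7 counts against 5. Neither passed with limma on log2(FPKM + 1) (adjusted p = 0.893 for HDHD1 and 0.877 for PCDH7). RORB did not pass with edgeR (0.76 ± 0.38, adjusted p = 0.0717). MPPED2, a metallophosphoesterase, had 0.119 and 0.131 FPKM in resistant dBET6 and 0.0343 and 0.0244 in resistant JQ1, against 0.238 and 0.0592 in parental dBET6 and 0.330 and 0.268 in parental JQ1. It was higher in dBET6 in resistant cells (2.01 ± 0.49, adjusted p = 6.69e-04) and lower in parental cells (-1.43 ± 0.43, adjusted p = 0.00388), and the line gap changed by 3.44 ± 0.65 (adjusted p = 1.84e-04), a call that ended with limma on log2(FPKM + 1), where the adjusted p was 0.245.

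THRB, a thyroid hormone receptor, had 0.356 and 0.336 FPKM in resistant dBET6 and 0.00441 and 0.00882 in resistant JQ1, against 0.761 and 0.201 in parental dBET6 and 0.312 and 0.0899 in parental JQ1. In FPKM the lines overlapped in dBET6 and were apart in JQ1. By counts THRB was lower in resistant cells in dBET6 as well, at 9 counts against 35 (-1.54 ± 0.53, adjusted p = 0.0195). LMO2, a LIM-domain transcription cofactor, had 0.691 and 0.105 FPKM in resistant dBET6 and 0.0197 and 0.0488 in resistant JQ1, against 0.514 and 0.804 in parental dBET6 and 0.852 and 0.975 in parental JQ1. Its resistant dBET6 libraries were far apart, so its mean there rests mostly on replicate 1. By counts LMO2 was lower in resistant dBET6, at 10 against 45 (-1.76 ± 0.47, adjusted p = 0.00292). FEZ1, a kinesin adaptor of neurons, had 1.25 and 0.666 FPKM in resistant dBET6 and 0.0322 and 0.173 in resistant JQ1, against 5.06 and 3.68 in parental dBET6 and 2.11 and 2.35 in parental JQ1. For FEZ1 the paired transcripts gave a mean of 0.672 in resistant JQ1 where the deposited mean was 0.102, so its change by counts (1.43 ± 0.47, adjusted p = 0.0220) and by FPKM differ. GALNT9, which starts O-glycans, had 1.13 and 0.707 FPKM in resistant dBET6 and 0.195 and 0.110 in resistant JQ1, against 5.01 and 3.83 in parental dBET6 and 5.06 and 4.30 in parental JQ1. Its parental level was thus much the same in both compounds, and its line difference changed by 2.54 ± 0.50 (adjusted p = 2.77e-04). MSC, a bHLH repressor, had 0 and 0.588 FPKM in resistant dBET6 and 0 in both resistant JQ1 libraries, against 0.526 and 0.541 in parental dBET6 and 1.00 and 1.19 in parental JQ1. PBX4, a homeobox cofactor, had 0.260 and 0.119 FPKM in resistant dBET6 and 0 in both resistant JQ1 libraries, against 0.291 and 0.352 in parental dBET6 and 0.715 and 0.858 in parental JQ1. MSC rests on 2 resistant counts in dBET6 and PBX4 on 3. These 6 members were named after their values were seen.

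The downward changes were those of PRSS12, whose gap was wider in dBET6, and TRPC4, whose line difference by counts had opposite signs. PRSS12, a secreted protease known as neurotrypsin, had 0.0300 and 0.0540 FPKM in resistant dBET6 and 0.0666 and 0.0999 in resistant JQ1, against 1.11 and 1.82 in parental dBET6 and 0.418 and 0.337 in parental JQ1. The difference between the lines changed by -2.80 ± 0.60 (adjusted p = 6.77e-04). TRPC4 changed by -7.08 ± 1.93 (adjusted p = 0.00622) from -3.17 ± 0.84 in dBET6 and 3.91 ± 1.71 in JQ1, on counts at 0 in parental JQ1, which its FPKM contradict, and without resistant JQ1 replicate 1 the value was -3.17 with an adjusted p of 1. On the FPKM scale with limma, 12 of 96 members changed upward (8.47% of genes) and 12 downward (6.52%). On log2(FPKM + 1) a difference between low levels is compressed, and BEX1, upward by counts, changed there by -0.12 (adjusted p = 0.664).

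**Figure D5:**
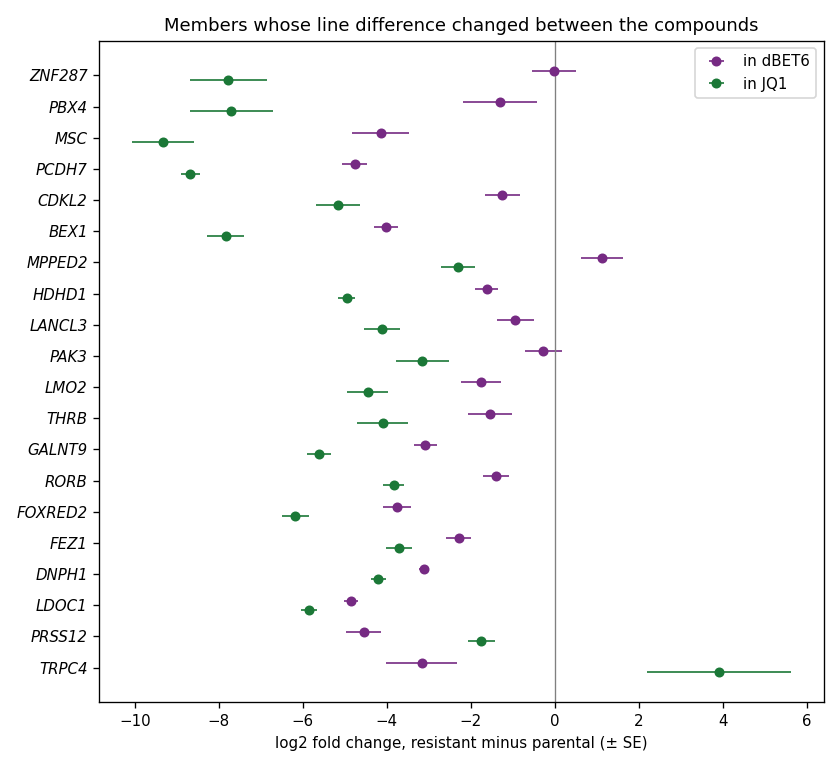
Log2 fold change of resistant minus parental cells (± SE, edgeR, n = 2 libraries per group) in dBET6 (purple) and in JQ1 (green) for the 20 members whose line difference changed. For 18 the dBET6 point lies to the right, and for PRSS12 and TRPC4 to the left. ZNF287, PBX4 and MSC in JQ1 rest on 0 resistant counts and TRPC4 in JQ1 on 0 parental counts, so those values are no bounds.

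The members lay on most chromosomes. The X chromosome held 13 of its 406 eligible genes (3.20%) and chromosome 4 held 10 of 425 (2.35%), against 0.795% in all. Chromosome 9 held 8 of 499 (1.60%) and chromosome 16 held 0 of 582. The genes left out by name count here among the eligible genes but not among the members. IDUA, next to SLC26A1 on chromosome 4, is among those left out. The shares therefore do not rank the chromosomes by the rule alone. Members next to each other were HOXD11 with HOXD10, PCDH7 with ARAP2 on chromosome 4 and TLR4 with BRINP1 on chromosome 9, and TRAM1L1 and PRSS12 on chromosome 4 had 1 gene between them. BRINP1, a neural cell cycle inhibitor, had 0 and 0.0196 FPKM in resistant dBET6 and 0 in both resistant JQ1 libraries, against 0.0862 and 0.104 in parental dBET6 and 0.358 and 0.410 in parental JQ1. Like TLR4 beside it, BRINP1 was low in parental dBET6 and its line difference there did not pass (adjusted p = 0.115). TRAM1L1, related to a protein translocation factor of the endoplasmic reticulum, had 0 and 0.0389 FPKM in resistant dBET6 and 0.0939 and 0.0633 in resistant JQ1, against 0.0584 and 0.0316 in parental dBET6 and 1.00 and 1.16 in parental JQ1. NDST3, the gene between TRAM1L1 and PRSS12, was also lower in JQ1 (log2 difference -3.66, adjusted p = 8.64e-04), at means of 0.00515 FPKM in resistant against 0.191 FPKM in parental cells.

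The 169 protein-coding genes next to members gave 103 tested genes. Of these 36 (35.0%) were lower and 10 higher in resistant JQ1, and 34 (33%) were lower and 15 higher in resistant dBET6. Over all genes 19.0% were lower and 16.8% higher in JQ1, and 24.3% were lower and 19.7% higher in dBET6. In JQ1 6 of the neighbours had a log2 difference below -4, and in dBET6 3 did. The share of all genes below -4 was not counted, so nothing is read from these numbers. MINOS1-NBL1, 1 of the 6 in JQ1, did not pass with edgeR (-6.87, adjusted p = 0.367). IDUA is among the neighbours below -4 in both compounds (-9.39 in JQ1 and -9.48 in dBET6). It met the rule itself and was left out by name. DNA copy number was not analysed here.

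Lists of related genes held genes that were lower and genes that were higher in resistant cells. The cadherin list includes PCDH7, the immunoglobulin list NCAM2 and the matrix list LUM, which are members. Over all genes tested, 19.0% were lower and 16.8% higher in JQ1, with a median log2 difference of 0.01. In dBET6 24.3% were lower and 19.7% higher, with a median of -0.07. Of 11 cadherins and protocadherins tested, 4 were lower and 3 higher in resistant JQ1, and 4 were lower and 2 higher in resistant dBET6. PCDH10 (-7.13 ± 0.44, adjusted p = 5.57e-13) and PCDH17 (-5.25 ± 0.37, adjusted p = 1.02e-11) were lower with PCDH7 in JQ1, while CDH2, N-cadherin, was higher (1.44 ± 0.09, adjusted p = 2.85e-13). The list's median was 0.19 in JQ1 and 0.33 in dBET6. Of 13 immunoglobulin adhesion genes, 4 were lower and 1 higher in JQ1 (median -0.50) and 6 were lower and 2 higher in dBET6 (median -0.70), with CADM1 higher in JQ1 by 2.65 ± 0.24 (adjusted p = 1.25e-09). Of 27 secreted matrix genes, 14 were lower and 6 higher in JQ1 (median -0.51) and 11 were lower and 9 higher in dBET6 (median -0.02), with COL5A1 lower in JQ1 by -4.18 ± 0.14 (adjusted p = 1.58e-18). Of 17 neural and glial transcription factors, 7 were lower and 4 higher in JQ1 (median -0.46) and 7 were lower and 6 higher in dBET6 (median -0.14). Of 25 growth factor receptors, 11 were lower and 5 higher in JQ1 (median -0.08) and 6 were lower and 6 higher in dBET6 (median -0.03). EPHB2 was among them, a receptor that missed the rule at 6.38% of the parental level in DMSO. GABRA2 at 6.47% and KLHL4 at 6.72% were the next outside, and FDCSP at 6.05% and HDHD1 and HAS1 at 6.15% the nearest inside.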

How the data were processed

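PolyA RNA was measured in 12 libraries, 2 for each of 6 groups. Each library has a deposited table of estimated counts, one value per transcript and not normalized, whose columns carry the names that kallisto writes. Per the file headers, the same deposited tables hold TPM. FPKM came as 1 deposited gene table, made with kallisto and DESeq2 on hg19 per the submitters' processing notes, with no versions stated there.

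Transcripts were paired with genes through GENCODE (92.1% of 196354 transcripts, 94.7% to 96.2% of counts), and counts were summed per gene and rounded. Of 96 members, 89 had paired transcripts, and 7 had none (ANXA8, CT45A1, CT45A5, CT45A6, AL645608.1, AC012414.1 and AL050303.1). In parental DMSO 76 members were rebuilt within 5% of the deposited FPKM, and 7, among them MTMR1, PTPRS, TRPC4, AGTR1, NCAM2 and SAGE1, to less than 0.8 of it. In single groups the paired transcripts also differed by more than 2-fold for CHN2, FEZ1, ZNF551, SH3GL2 and PTPRS.

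After filterByExpr 19093 genes were left. They were tested in R 4.3.3 by the robust quasi-likelihood method of edgeR 4.0.16 with TMM scaling, all 12 libraries in 1 fit, with Benjamini-Hochberg adjustment over all genes and a threshold of 0.05. The contrasts were resistant against parental in JQ1 and in dBET6, dBET6 against JQ1 in each line, and the change of line difference. The biological coefficient of variation was 7.88% with 6 residual degrees of freedom. Alternatives were DESeq2 1.42.0, limma 3.58.1 on log2(FPKM + 1) and log2(FPKM + 0.1) with a mean of at least 0.1 FPKM or none, other scalings and filters, only the libraries compared, a replicate block and leaving out each library. Intervals (95%, exact binomial) and the floor (3 counts in each library) reflect counting error alone. The fit was tested on simulated data.

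Members and lists were chosen with earlier results of these data known. Named were the 12 highest members in parental DMSO, the 5 with the smallest p per contrast and direction, the 5 highest in resistant JQ1 and in resistant dBET6, the 3 nearest the limit on either side, runs of neighbours and up to 4 genes per list. Others were named after their values were seen. A few members are left without a name or values of their own.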

Additional observations from a re-analysis of the deposited data

Results flagged for a closer look

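For 20 members the difference between resistant and parental cells was not the same in dBET6 as in JQ1, by edgeR's test of the change itself (log2, line difference in dBET6 minus line difference in JQ1, adjusted p under 0.05 over all genes), where 14.6% of all genes changed upward and 15.5% downward. Members were chosen as nearly silent in resistant cells, so nothing is read from the balance of their directions. The change was upward for 18, a narrower gap in dBET6 except for MPPED2, whose line difference had opposite signs by counts. It was 7.75 for ZNF287, 6.4 for PBX4 and 5.19 for MSC, each with 0 counts in resistant JQ1, so these sizes are not bounds. It was 3.92 for PCDH7, 3.90 for CDKL2, 3.81 for BEX1, 3.44 for MPPED2, 3.33 for HDHD1 and 3.16 for LANCL3. It was 2.88 for PAK3, 2.69 for LMO2, 2.56 for THRB, 2.54 for GALNT9, 2.43 for RORB and 2.42 for FOXRED2. The smallest were 1.43 for FEZ1, 1.09 for DNPH1 and 0.99 for LDOC1. The change was downward for PRSS12, at -2.80, and for TRPC4, at -7.08, the last with 0 counts in parental JQ1 where the deposited FPKM is above 0. With limma on log2(FPKM + 1), only HDHD1, PCDH7, ZNF287, PBX4 and RORB passed upward and only PRSS12 passed downward among these 20. LDOC1 and BEX1 had the opposite sign there.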

How the results depend on the processing

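Of 1912 recomputed values of 87 named member results over 23 settings, 1877 kept their direction and side of the threshold, 32 lost the call, 2 gained it (TRPC4 in JQ1 without resistant JQ1 replicate 2, at 4.85, and BRINP1 in dBET6 with mitochondrial scaling, at -2.59) and 1 reversed (LDOC1, dBET6 minus JQ1 in parental cells, -0.16 with mitochondrial scaling). DESeq2 gave 4 no adjusted p. Counts follow as lower/higher, in the order resistant minus parental in JQ1, the same in dBET6, dBET6 minus JQ1 in resistant cells, the same in parental cells, and the change of line difference. Total-count and mitochondrial scaling shifted the median of all genes by -0.00 and -0.50, -0.37 and -0.54, -0.88 and -1.48, -0.52 and -1.46, and -0.36 and -0.02.

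With mitochondrial scaling all genes gave 7609/546, 7912/914, 12112/2016, 12713/1910 and 1089/916, and members 14/11 in the third and 57/5 in the fourth. With total counts all genes gave 7784/1857 in the second, 3713 higher in the third and 5951/1272 in the fifth, and members 9/20 in the third and 36/18 in the fourth. With a mean of at least 10 CPM only 3 members remained. All genes then gave 2324 lower in the first, 2880 lower in the second, 4292/3597 in the third and 4133/3578 in the fourth, and members 3 lower, 3 lower, 0/3, 1/2 and 0/3. With limma on log2(FPKM + 1), all genes gave 2148/1536 in the first and 1785 lower in the fifth, and members 1 higher in the second, 0/10 in the third and 12 lower in the fifth. With no filter these were 1914/1329, 1728, 1, 0/9 and 10. With log2(FPKM + 0.1) they were 2143/1497 and 1559, with members 1 higher in the second, 0 lower in the third and 4 lower in the fifth. DESeq2 gave 1 member lower in the fifth. Only the libraries compared gave 0/13 in the third, with 17 members tested. The cause was not tested.

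Leaving out 1 library gave members 84 to 85 lower and 0 to 1 higher, 70 to 77 and 0 to 0, 1 to 3 and 22 to 31, 19 to 25 and 25 to 30, and 1 to 3 and 14 to 19. The 1 higher was TRPC4 without resistant JQ1 replicate 2. In the third comparison 2 were lower without resistant dBET6 replicate 2 and 3 without resistant JQ1 replicate 2. In the fifth, 1 was lower without resistant JQ1 replicate 1. All genes gave 2600 to 3782 and 2174 to 3312, 3850 to 4656 and 3148 to 3821, 7104 to 7588 and 6101 to 6968, 7032 to 7566 and 6298 to 7120, and 2309 to 2969 and 2273 to 2808. Same-numbered libraries did not deviate together (correlations -0.06 to 0.06 over 15 pairs of groups). With the replicate block, members gave 85/0, 75/0, 1/33, 22/30 and 2/18, and all genes 3545 lower and 3136 higher in the first. Members at 0 to 3 counts in a group are limited by depth: their differences have bounds or wide intervals.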
